A study of Mus musculus with 16 samples.

Results

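Nickel-treated mouse embryonic stem cells carried more transferrin receptor mRNA than untreated cells, and the mRNAs of ferritin heavy chain and of the iron sensor Fbxl5 were lower in some of the same groups. These are 3 of 10 iron-handling genes described here, out of 26239 genes in the deposited tables. The genes were chosen by name for their roles in iron uptake (Tfrc, Steap3, Slc11a2), iron export (Slc40a1), iron storage (Fth1, Ftl1, Ncoa4) and control of the system by iron (Ireb2, Aco1, Fbxl5), and all 10 names were found in each of 6 tables. They were proposed with earlier results of these data in view.

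The cells were wild-type E14Tg2A, an established mouse embryonic stem cell line, grown in serum-containing medium. LIF, a cytokine that holds mouse embryonic stem cells in the undifferentiated state, was present throughout, in controls and treated groups alike. The treated cells received nickel chloride at 100, 150 or 200 µM, renewed at every passage, and were collected on day 4 or day 6. Untreated cells of the same line and medium (0 µM) were collected on each day. The title of the series frames the study as one of nickel and the epigenetic repression of developmental genes. Each of the 8 groups had 2 poly(A)-selected, strand-specific RNA-seq libraries, 16 in all. The labels do not say whether the libraries of a group are separate cultures. The spread behind the p-values may thus be technical, and all results come from 1 cell line.

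Cells take up iron mainly as transferrin, which binds transferrin receptor 1 (the product of Tfrc) and is carried into endosomes. There Steap3 reduces ferric to ferrous iron, and Slc11a2 (DMT1), a carrier of ferrous iron and other divalent metals, moves it into the cytosol. Surplus iron is stored in shells of ferritin heavy and light chains (Fth1, Ftl1), released again when Ncoa4 delivers ferritin to lysosomes, or exported by ferroportin (Slc40a1). The iron regulatory proteins, Aco1 (IRP1) and Ireb2 (IRP2), bind stem-loops called iron-responsive elements when iron is scarce. Bound in the 3′ UTR of Tfrc they protect the mRNA from decay, and bound in the 5′ UTR of ferritin and ferroportin mRNAs they block translation, so ferritin protein can change with little change in its mRNA. Fbxl5, a ubiquitin ligase subunit that senses iron and oxygen, marks IRP2 for degradation.

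Iron-responsive elements are shown for the members in which they were found: Tfrc, Slc40a1, Fth1 and Ftl1. Among these, only Tfrc had them in the 3′ UTR and only Tfrc had more than 1. Their part in the mRNA levels below was not tested. The elements were found by searching the mRNA strand of GENCODE M21 UTRs (build GRCm38). The pattern was an unpaired C, an arm of 5 bases, the loop CAGTGN and a second arm pairing with the first. G-T pairs were allowed. Each sequence is 29 bases, 5′ to 3′ along the mRNA, written as DNA, with the loop in capitals.
Tfrc site 1: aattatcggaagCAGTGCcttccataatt
Tfrc site 2: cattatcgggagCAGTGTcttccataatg
Tfrc site 3: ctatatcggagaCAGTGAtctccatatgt
Tfrc site 4: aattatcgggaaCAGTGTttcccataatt
Slc40a1 site: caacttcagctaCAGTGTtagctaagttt
Fth1 site: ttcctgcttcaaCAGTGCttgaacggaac
Ftl1 site: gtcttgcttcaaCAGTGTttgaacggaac

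The Tfrc sites lay on the plus strand at chr16:32631219-32631247, chr16:32631598-32631626, chr16:32631663-32631691 and chr16:32631710-32631738. All 4 were in the last exon (exon 19 of 19). Their unpaired C was base 889, 1268, 1333 and 1380 of a 3′ UTR of 2458 bases. The coordinates and printed sequences begin upstream of that C, in the flank. The Slc40a1 site was at chr1:45925465-45925493 on the minus strand, the Fth1 site at chr19:9982732-9982760 on the plus strand and the Ftl1 site at chr7:45459779-45459807 on the minus strand. Each of these 3 was in exon 1, in the 5′ UTR, with its unpaired C at base 96, 93 and 84 of the mRNA. Among 21840 protein-coding genes, 127 (0.5815%) had at least 1 match in a 3′ UTR, and 1 gene, Tfrc, had more than 1. A 5′ UTR match was present in 28 genes (0.1282%). The search found no match in Steap3, Slc11a2, Ncoa4, Ireb2, Aco1 or Fbxl5, which says only that this pattern is not in the UTRs searched. It also found none in Epas1, Cdc14a or Cdc42bpa, which are listed below as mRNAs with a described element. The search thus misses some elements, and a gene may hold more than are shown. A described Slc11a2 isoform carries an element, but the tables give 1 value per gene and do not separate isoforms.

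**Figure D1:**
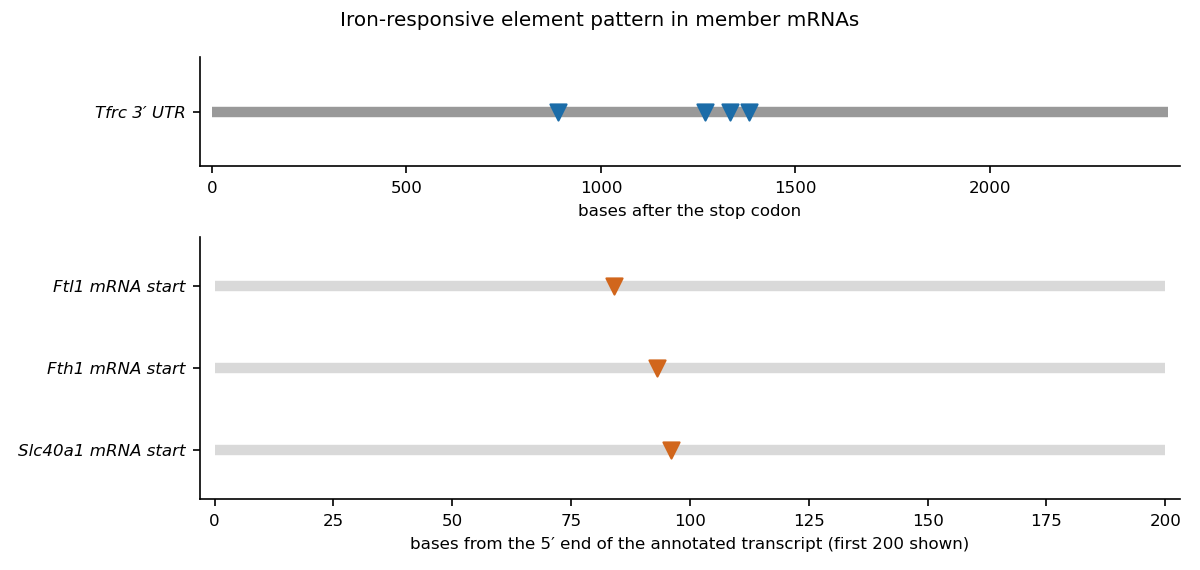
Position of the stem-loop matches along the UTR, in bases, for Tfrc (3′ UTR, counted from the stop codon) and for Slc40a1, Fth1 and Ftl1 (5′ UTR, counted from the mRNA start). Tfrc has 4 matches, with their unpaired C between bases 889 and 1380 of a 3′ UTR of 2458 bases. The other genes have 1 match each, starting within the first 100 bases of the mRNA.

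Expression is given as RPKM, read counts scaled for mRNA length and library depth, which the authors deposited as 1 value per group and gene, so no SD over libraries can be given. Fold changes against the untreated cells of the same day and their p-values are those of the authors' deposited tables. Standard errors (SE) and 95% confidence intervals were worked back from each fold change and its p-value. A gene is said to have risen or fallen where the deposited adjusted p was under 0.05. The 3 doses of a day share the same control libraries, so their values are set side by side and were not tested against each other. The spacing of low RPKM values gave library depths between 34 and 77 megareads. The lowest was in the 150 µM group of day 6, whose 2 libraries were at 34 and 61 megareads. That group also had the lowest RPKM of Fth1, Steap3, Slc40a1, Fbxl5 and Aco1. In its comparison the deposited log2 fold changes lay above the log2 RPKM ratios by a median of 0.0881, against 0.0058 to 0.0612 in the others. The part of depth in these values was not tested. The 10 embryonic stem cell markers examined were at 64.0 RPKM or more in every group, with Pou5f1, the pluripotency factor Oct4, at 695 to 857. Summed RPKM over marker lists of other cells was 4.45 to 7.32 for endoderm, 2.30 to 3.90 for mesoderm, 3.45 to 6.82 for trophectoderm, 28.5 to 40.1 for neural cells and 4.71 to 11.3 for fibroblasts, against 6232 to 7832 for the stem cell list.

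The 10 genes spanned a wide range of levels on the per-length RPKM scale. Ftl1 was the highest in every group (705 to 827) and Fth1 was next (320 to 414), followed by Tfrc (72.9 to 101), Ireb2 (44.6 to 57.2), Fbxl5 (20.8 to 28.8) and Aco1 (14 to 18). Ncoa4 (7.86 to 9.87) overlapped in range with both Slc11a2 (9.33 to 10.6) and Steap3 (4.72 to 8.65). Slc40a1 was lowest, at 0.478 to 0.948. In untreated cells the ratio of day 6 to day 4 RPKM lay between 0.8173 for Steap3 and 1.1235 for Slc40a1, and was 1.0562 for Tfrc. These control ratios have no test.

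**Figure D2:**
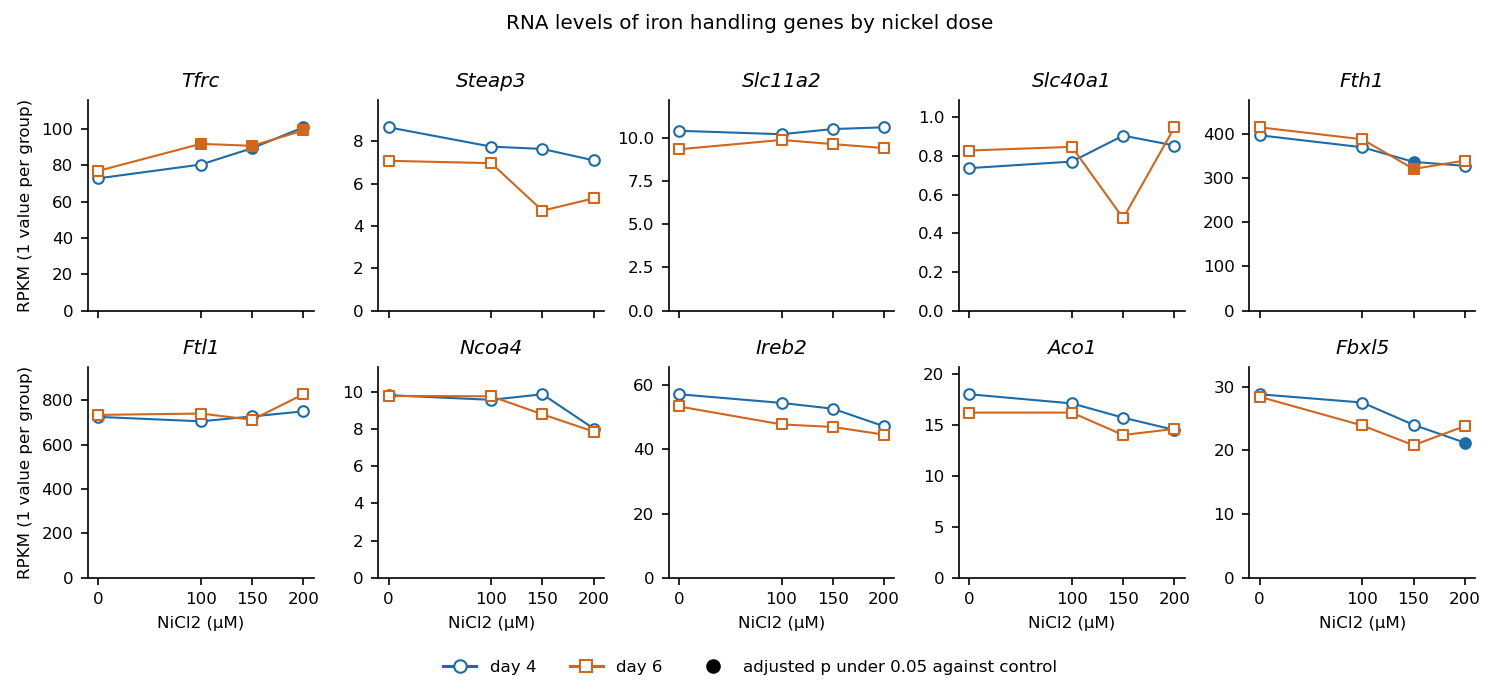
RPKM (linear axis from 0, its own scale in each panel) of the 10 iron-handling genes against nickel dose in µM, 1 point per group and 1 line per day; filled points passed an adjusted p of 0.05. The panels differ in level from under 1 RPKM (Slc40a1) to 827 (Ftl1); Tfrc is higher in all nickel groups than in the controls, and Fth1 and Fbxl5 are lower.

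Of 60 values (10 genes in 6 comparisons), 8 passed the threshold in the authors' deposited tables. Tfrc rose in 5 comparisons, Fth1 fell in 2 and Fbxl5 fell in 1, and the other 7 genes passed in none. At 100 µM on day 4, 0 of 10 genes passed, against 1.04% of all genes tested (0.576% higher and 0.462% lower). At 150 µM on day 4, 2 of 10 passed (Tfrc higher, Fth1 lower), against 6.75% (3.44% higher and 3.32% lower). At 200 µM on day 4, 2 of 10 passed (Tfrc higher, Fbxl5 lower), against 7.92% (4.14% higher and 3.77% lower). On day 6, 1 of 10 passed at 100 µM (Tfrc higher), against 2.83% (1.62% higher and 1.21% lower). The 150 µM comparison of day 6 had 2 of 10 (Tfrc higher, Fth1 lower), against 4.34% (2.36% higher and 1.99% lower). The 200 µM comparison of day 6 had 1 of 10 (Tfrc higher), against 9.47% (4.99% higher and 4.48% lower). These counts of 0 to 2 genes do not set the 10 genes as a group apart from the background, which was higher still, 1.56% to 12.9%, among genes with a mean RPKM of at least 1. An unadjusted p under 0.05 was found for 1, 3 and 5 of the 10 genes with rising dose on day 4, against 7.84%, 16.3% and 18.1% of all genes tested. The day 6 counts were 3, 4 and 4, against 11.6%, 13.6% and 20.4%.

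The median log2 fold change of the 10 genes was -0.02, -0.02 and -0.22 at 100, 150 and 200 µM on day 4, and 0.00, -0.11 and -0.19 on day 6. The median over all genes tested lay between -0.03 and 0.01.

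Tfrc (chr16:32609122-32632794, plus strand) rose with nickel on both days. On day 4 its level was 72.9 RPKM in untreated cells, then 80.5, 89.5 and 101 RPKM as the dose went from 100 to 200 µM. On day 6 it was 77.0 in untreated cells, and 91.9, 90.8 and 99.3 RPKM at the same doses. All 6 nickel groups lay above both controls, and the highest group was 1.39 times the lowest.

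From the lowest dose to the highest, the day 4 log2 fold changes of Tfrc in the authors' deposited tables were 0.18 ± 0.08 (SE; adjusted p = 0.396), 0.34 ± 0.06 (adjusted p = 7.17e-07) and 0.53 ± 0.10 (adjusted p = 7.24e-06). The last 2 values are rises of 26.2% and 44.1%, with intervals of 0.22 to 0.45 and 0.33 to 0.72 on the log2 scale. On day 6 they were 0.26 ± 0.08 (adjusted p = 0.0482), 0.32 ± 0.10 (adjusted p = 0.0327) and 0.39 ± 0.12 (adjusted p = 0.0231) in the authors' deposited tables, or rises of 19.7%, 25.2% and 30.7%. Tfrc thus passed in 5 of 6 comparisons. Of 21364 genes tested in any comparison, 108 (0.506%) rose in at least 5 of the 6, and 42 rose in all 6. Among 10987 genes with an RPKM of at least 1 in every group, 96 (0.874%) rose in at least 5, and 35 in all 6. In bulk RNA, a larger share of cells with high Tfrc and more Tfrc mRNA per cell cannot be told apart.

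**Figure D3:**
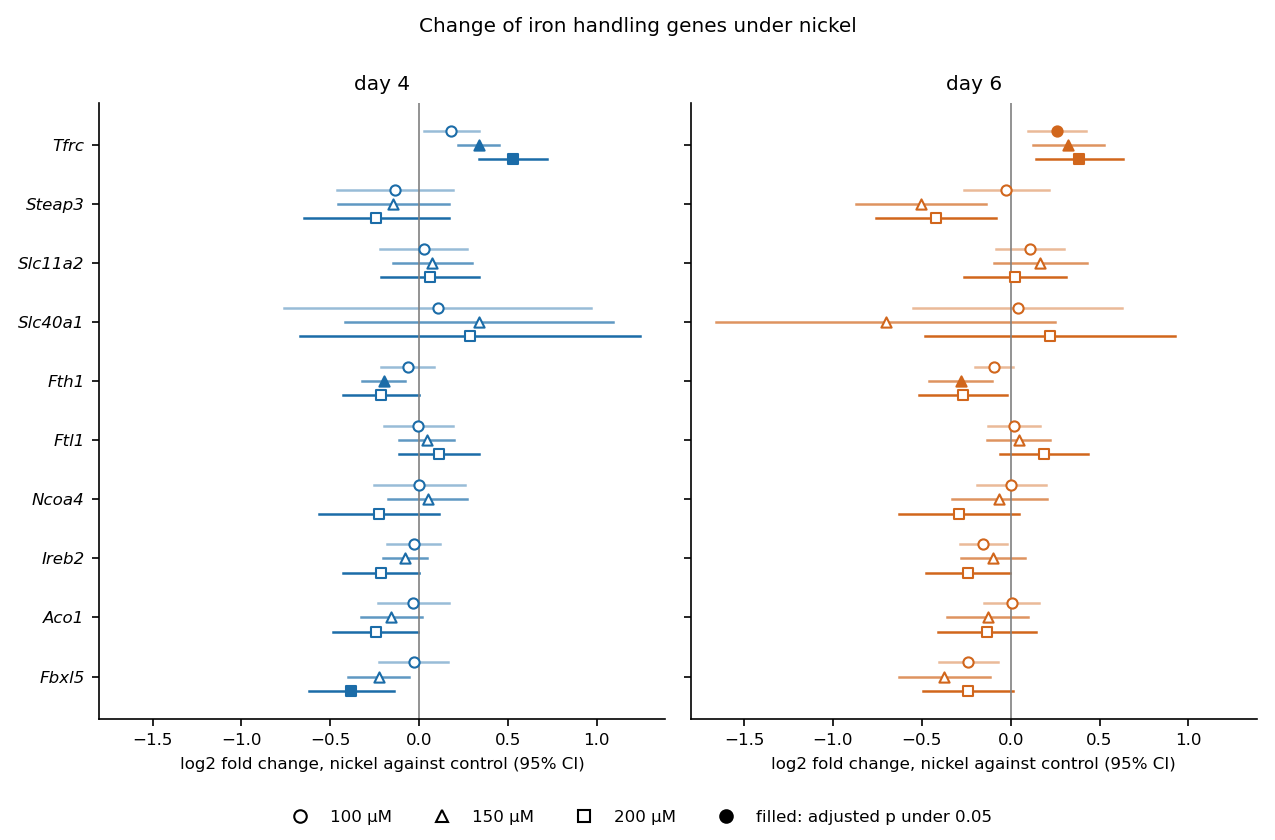
Log2 fold change of each gene against the untreated cells of the same day (authors' deposited values) at 100, 150 and 200 µM nickel, with 95% intervals worked back from the p-values; filled points passed the adjusted p threshold of 0.05. Tfrc lies above 0 at every dose and day, Fth1, Fbxl5, Ireb2 and Steap3 lie below 0, and the interval of Slc40a1 is wide.

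The other uptake genes did not pass in any comparison. Steap3 (chr1:120226414-120271080, minus strand), the endosomal ferric reductase, was at 8.65, 7.74, 7.63 and 7.09 RPKM on day 4 and at 7.07, 6.96, 4.72 and 5.3 RPKM on day 6, from 0 to 200 µM. The day 6 values at 150 and 200 µM were the lowest of the 8 groups. Their log2 fold changes in the authors' deposited tables were -0.50 ± 0.19 (interval -0.87 to -0.14, adjusted p = 0.0877) and -0.42 ± 0.17 (adjusted p = 0.0977). All 6 Steap3 fold changes were negative.

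Slc11a2 (chr15:100392658-100423055, minus strand), the divalent metal carrier, was at 10.4, 10.2, 10.5 and 10.6 RPKM on day 4 and at 9.33, 9.87, 9.63 and 9.4 RPKM on day 6. The controls and the nickel groups overlapped within 1.14 times from lowest to highest. Its log2 fold changes in the authors' deposited tables ran from 0.02 to 0.17, with adjusted p of 0.592 or more. At 200 µM the intervals were -0.21 to 0.34 on day 4 and -0.26 to 0.31 on day 6.

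Slc40a1 (chr1:45908070-45925594, minus strand), the exporter ferroportin, was near 1 RPKM or below in every group. It was at 0.737, 0.771, 0.905 and 0.854 RPKM on day 4, and at 0.828, 0.847, 0.478 and 0.948 RPKM on day 6. The 150 µM group of day 6 was the lowest, and the other nickel groups were all slightly above their controls. The log2 fold change of that group in the authors' deposited table was -0.70 ± 0.49 (interval -1.66 to 0.25, adjusted p = 0.512). With SE between 0.30 and 0.49, changes of the size seen in Tfrc were not detectable for Slc40a1 at this depth.

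Among the storage genes, the ferritin heavy chain Fth1 (chr19:9982646-9985111, plus strand), which carries the ferroxidase activity of the shell, was lower in nickel. It was at 396, 369, 336 and 327 RPKM on day 4 and at 414, 387, 320 and 339 RPKM on day 6. All 6 nickel groups lay below both controls. Fth1 fell in the authors' deposited tables at 150 µM, by 12.9% on day 4 (log2 fold change -0.20 ± 0.06, adjusted p = 0.018) and by 17.7% on day 6 (-0.28 ± 0.09, adjusted p = 0.0385). At 200 µM the authors' deposited log2 fold changes were -0.22 ± 0.11 (adjusted p = 0.233) and -0.27 ± 0.13 (adjusted p = 0.159), close in size but with larger SE. At 100 µM they were -0.06 and -0.09 and did not pass. Gm6977, a processed pseudogene, shares 7.0% of the 31-base stretches of the Fth1 mRNA.

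The ferritin light chain Ftl1 (chr7:45457944-45459886, minus strand), which aids mineral formation in the shell, was at 725, 705, 727 and 750 RPKM on day 4 and at 734, 740, 712 and 827 RPKM on day 6. Control and nickel groups overlapped on both days. Its log2 fold changes in the authors' deposited tables lay between 0.00 and 0.19, with adjusted p of 0.381 or more. These values are uncertain because Ftl1-ps1, annotated as protein-coding, shares 80.6% of the 31-base stretches of the Ftl1 mRNA. Of 6 further genes sharing at least 5%, Gm15590 (41.9%) and Ftl2-ps (37.7%), both annotated as processed pseudogenes, share the most. Reads could be divided between the copies. The difference in response between the ferritin chains was not tested.

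Ncoa4 (chr14:32159887-32179855, plus strand), the receptor that carries ferritin to lysosomes, was at 9.82, 9.57, 9.87 and 8.02 RPKM on day 4 and at 9.78, 9.76, 8.79 and 7.86 RPKM on day 6. The 200 µM groups were the lowest on both days. Their log2 fold changes in the authors' deposited tables were -0.23 ± 0.17 (adjusted p = 0.497) and -0.29 ± 0.17 (adjusted p = 0.298). The processed pseudogene Gm6768 shares 44.3% of the 31-base stretches of the Ncoa4 mRNA, so its counts are uncertain too.

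Of the 3 regulators, 1 passed: Fbxl5 (chr5:43744618-43782149, minus strand). It was at 28.8, 27.5, 24 and 21.2 RPKM on day 4 and at 28.4, 23.9, 20.8 and 23.8 RPKM on day 6. All 6 nickel groups lay below both controls. At 200 µM on day 4 Fbxl5 fell in the authors' deposited table by 23.2% (log2 fold change -0.38 ± 0.12, interval -0.62 to -0.14, adjusted p = 0.0255). At 150 µM the authors' deposited log2 fold changes were -0.23 ± 0.09 (adjusted p = 0.0862) on day 4 and -0.37 ± 0.13 (adjusted p = 0.0681) on day 6. At 100 and 200 µM on day 6 they were -0.24 ± 0.09 (adjusted p = 0.0993) and -0.24 ± 0.13 (adjusted p = 0.245).

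Ireb2 (chr9:54863755-54912534, plus strand), the regulator that Fbxl5 marks for degradation, was at 57.2, 54.5, 52.7 and 47.2 RPKM on day 4 and at 53.4, 47.8, 47.0 and 44.6 RPKM on day 6. Within each day the RPKM was lower at each higher dose. The day 6 log2 fold changes in the authors' deposited tables did not keep this order. They were -0.15, -0.10 and -0.24 at 100, 150 and 200 µM. The authors' deposited log2 fold changes at 200 µM were -0.22 ± 0.11 (adjusted p = 0.228) and -0.24 ± 0.12 (adjusted p = 0.206). No value passed, and 3 of 6 had an unadjusted p under 0.05.

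Aco1 (chr4:40143265-40199009, plus strand) is a cytosolic aconitase when it holds an iron-sulfur cluster and an RNA-binding regulator when it does not. It was at 18, 17.1, 15.7 and 14.5 RPKM on day 4 and at 16.2, 16.2, 14 and 14.6 RPKM on day 6. The 150 and 200 µM groups were below the control on each day. The largest of the authors' deposited log2 fold changes was -0.24 ± 0.12 at 200 µM on day 4 (adjusted p = 0.217), and no value passed.

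The summed RPKM of the fibroblast and neural lists was lower in every nickel group than in the control of its day, as Fth1 and Fbxl5 were. The fibroblast sum was 11.3, 9.27, 6.59 and 4.79 on day 4 and 8.02, 7.49, 4.71 and 5.68 on day 6, from 0 to 200 µM. Most of it was Thy1 (4.11 to 10.8), while Lum was listed at 0 in every group and Dcn did not exceed 0.0315 RPKM. The neural sum was 32.3, 30.6, 28.5 and 28.6 on day 4 and 40.1, 38.9, 32.8 and 32.2 on day 6, and most of it was Tubb3 (24.8 to 37.1). Without Thy1 or Tubb3 the rest of each list summed higher in every nickel group than in its control. The other lists of non-stem cells were not lower in every nickel group. The mesoderm sum was 2.515, 3.169, 2.798 and 3.897 on day 4 and 2.39, 2.3, 3.156 and 3.549 on day 6. The trophectoderm sum was 3.578, 3.449, 3.652 and 4.214, then 4.868, 6.695, 6.066 and 6.822. Most of it was Krt8 (2.15 to 6.18), and its other genes summed lower in every nickel group. The endoderm sum was 5.837, 6.18, 7.32 and 6.975, then 5.292, 4.447, 5.508 and 5.197. The part of these lists in the changes was not tested.

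The stem cell list summed to 6232, 6873, 7302 and 7359 RPKM on day 4 and to 6511, 7281, 6731 and 7832 on day 6, higher in each nickel group than in its control, as Tfrc was. Dppa5a alone gave 3670 to 4660 RPKM of these sums. The other 9 genes summed to 2562, 2903, 3102 and 3099 RPKM on day 4 and to 2631, 2861, 2851 and 3172 on day 6, also higher in each nickel group. Between 6 and 9 of the 10 stem cell genes were above the control in each comparison. The part of these genes in the rise of Tfrc was not tested.

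Whether the response differed between days was tested per gene by a normal test of the difference between the day 6 and day 4 log2 fold changes, adjusted over all genes by Benjamini-Hochberg. No difference passed for any of the 10 genes at any of the 3 doses. Over all genes tested the shares past the threshold were 0.0374%, 0.0745% and 0.0476% with rising dose. An unadjusted p under 0.05 was found for 0 of 10 genes at each dose, against 2.99%, 3.15% and 1.95% of all genes. For Tfrc the day 6 minus day 4 differences were 0.08 (interval -0.15 to 0.30), -0.01 (-0.24 to 0.22) and -0.14 (-0.45 to 0.17) on the log2 scale. The smallest p among the genes was 0.0929, for Slc40a1 at 150 µM, with a difference of -1.04 ± 0.62 (SE). These intervals leave room for differences between days as large as several of the changes themselves.

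Beyond these 10 genes, 89 further genes of iron metabolism in 8 lists were read from the same tables. Of these, 71 had an RPKM of at least 1 in every group, and 13 (14.6%) passed in at least 1 comparison, 6 higher and 7 lower. The share among all genes tested in any comparison was also 14.6%, but it was 20.8% among genes with an RPKM of at least 1 in every group. The share of the lists is of all 89 genes, including 2 at 0 in every group that were never tested. It was not limited to the 71 genes. By the authors' deposited adjusted p, the counts on day 4 were 0, 6 and 7 with rising dose (0.0%, 7.06% and 8.24% of those tested), and those on day 6 were 3, 1 and 4 (3.53%, 1.16% and 4.65%). At 100 µM on day 4, where none passed, 6 had an unadjusted p under 0.05 (6.9%, against 7.84% of all genes tested). Over all genes tested the shares past the threshold were 1.04%, 6.75% and 7.92% for the day 4 comparisons, and for those of day 6 they came to 2.83%, 4.34% and 9.47%. Among genes with a mean RPKM of at least 1 they were 1.56%, 9.91% and 11.4% on day 4. On day 6 they were 4.49%, 6.55% and 12.9% among such genes. Over all 89 genes the median log2 fold change lay between -0.05 and 0.04. The medians of the single lists ran from -0.25 (iron uptake, 200 µM on day 6) to 0.18 (other mRNAs with a described iron-responsive element, 200 µM on day 4).

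Of 13 uptake genes, 4 passed somewhere (30.8%, against 14.6% of all genes tested in any comparison). The counts of this and the other short lists are too small to set a list apart and were not tested. Lrp1, a receptor that clears haem bound to haemopexin among other ligands, rose in the authors' deposited tables on day 4 from 11.0 RPKM to 13.3 at 150 µM (log2 fold change 0.31 ± 0.06, adjusted p = 9.06e-05) and 15.0 at 200 µM (0.50 ± 0.15, adjusted p = 0.0137). Slc39a14, a zinc and iron importer, fell at 100 µM on day 6 from 12.7 to 10 RPKM (authors' deposited table: -0.34 ± 0.08, adjusted p = 0.0029). Mcoln1, a lysosomal cation channel, fell at 150 µM on day 4 from 15.1 to 10.6 RPKM (authors' deposited table: -0.47 ± 0.14, adjusted p = 0.012). Slc48a1, a haem transporter, was the fourth and passed at 200 µM on day 4. The second transferrin receptor gene, Tfr2, stayed at 0.746 to 1.19 RPKM and did not pass.

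Of 5 storage and chaperone genes, 1 passed. Pcbp4 belongs to the family of poly(C)-binding proteins that includes the iron chaperones Pcbp1 and Pcbp2. It was at 42.9, 34.1, 32.5 and 29.1 RPKM on day 4 and at 40.4, 37.7, 27.1 and 26 RPKM on day 6. It fell in the authors' deposited tables at 150 and 200 µM on day 4 (-0.36 ± 0.09 and -0.50 ± 0.14, adjusted p = 0.00212 and 0.00522) and on day 6 (-0.49 ± 0.12 and -0.61 ± 0.15, adjusted p = 0.00206 and 0.000727). Pcbp1 itself was at 175 to 196 RPKM and passed in no comparison. Of 11 genes of the export and hepcidin list, 1 passed (Abcg2, lower at 200 µM on day 6), and Hamp, which encodes hepcidin, was listed at 0 in every group.

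Of 19 genes of mitochondrial iron and iron-sulfur cluster assembly, 1 passed. Nfu1, which hands finished clusters to mitochondrial enzymes, was at 62.5, 51.6, 47.0 and 42.1 RPKM on day 4 and at 58.3, 49.1, 50.3 and 41.3 RPKM on day 6. The authors' deposited tables show it lower at 150 µM on day 4 (-0.37 ± 0.10, adjusted p = 0.0065) and at 200 µM on both days (-0.51 ± 0.14 and -0.48 ± 0.15, adjusted p = 0.00733 and 0.0161). None of the 11 genes of cytosolic cluster assembly passed in the authors' deposited tables. Per comparison, 0 to 3 of them had an unadjusted p under 0.05, against 7.84% to 20.4% of all genes tested.

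Of 14 genes of haem synthesis and breakdown, 3 passed. Blvrb, which reduces biliverdin, was at 22.6, 25.7, 26.1 and 32.3 RPKM on day 4 and at 20.4, 27.9, 26.3 and 35.4 RPKM on day 6. In the authors' deposited tables it rose at 200 µM on day 4 (0.57 ± 0.17, adjusted p = 0.0156), and at 100 and 200 µM on day 6 (0.46 ± 0.12 and 0.80 ± 0.19, adjusted p = 0.00694 and 0.000593). Ppox, the penultimate enzyme of haem synthesis, rose at 200 µM on day 4 from 5.96 to 9.81 RPKM (authors' deposited table: 0.78 ± 0.21, adjusted p = 0.00363). Hmox1, the haem oxygenase that frees iron from haem, fell at 150 µM on day 4 from 47.8 to 37.3 RPKM (authors' deposited table: -0.32 ± 0.10, adjusted p = 0.0245).

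Of 5 other mRNAs with a described iron-responsive element, 1 passed: Epas1, which encodes the hypoxia factor HIF-2α, rose at 150 µM on day 4 from 9.1 to 10.9 RPKM (authors' deposited table: 0.30 ± 0.10, adjusted p = 0.0408). Of 13 iron-sulfur enzymes, 2 passed. Abce1, a ribosome recycling factor, fell at 100 µM on day 6 from 102 to 88.7 RPKM (authors' deposited table: -0.20 ± 0.06, adjusted p = 0.0232), and Pold1, a DNA polymerase subunit, was higher at 200 µM on day 4. Slc48a1, Abcg2, Hmox1 and Pold1 are named here after their values were seen. Tfr2, Pcbp1 and Hamp, which passed in no comparison, were also not picked by the rule for naming list genes.

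**Figure D4:**
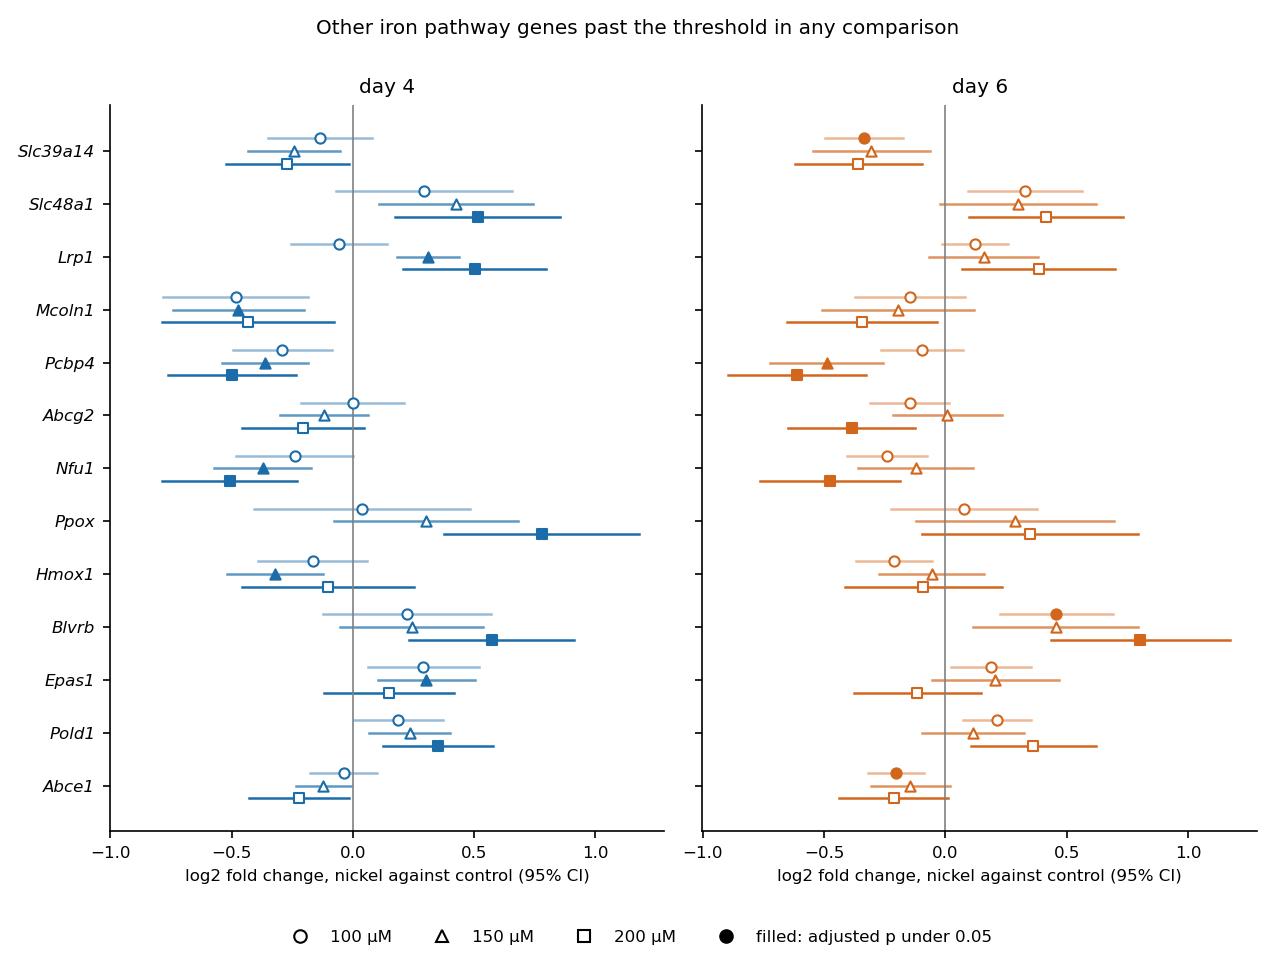
Authors' deposited log2 fold changes of the iron list genes that passed the threshold in at least 1 comparison, by dose and day, with the called values marked. Pcbp4 and Nfu1 are negative and Blvrb is positive in all 6 comparisons, while most other genes are marked in a single comparison.

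The genes whose pattern over the 8 groups was most like that of Tfrc were found by Pearson's r of log2 RPKM over 10602 genes with an RPKM of at least 1 in every group, leaving out predicted genes and microRNAs by their symbols. They were Slc52a2, a riboflavin transporter (r = 0.989), Notch4, a Notch receptor (0.988), Nudt22, a nudix hydrolase (0.986), Slc29a1, a nucleoside transporter (0.985), and Abcc10, an ABC transporter (0.982). These values are a description over 8 group values that share their libraries, with no p. Slc52a2 went from 1.68 to 2.56 RPKM between 0 and 200 µM on day 4 and from 1.87 to 2.61 on day 6. Notch4 went from 3.3 to 6.07 and from 3.7 to 5.88 RPKM, and Slc29a1 from 108 to 144 and from 118 to 139 RPKM. Of the 6 comparisons in the authors' deposited tables, Notch4 passed in 4, Slc52a2 in 3, Slc29a1 and Abcc10 in 2 each and Nudt22 in 0. None of these 5 genes is in the iron lists. Only 71 list genes had an RPKM of at least 1 in every group, against 10602 genes ranked. With so small a share, their absence from the first 5 says nothing about iron genes.

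**Figure D5:**
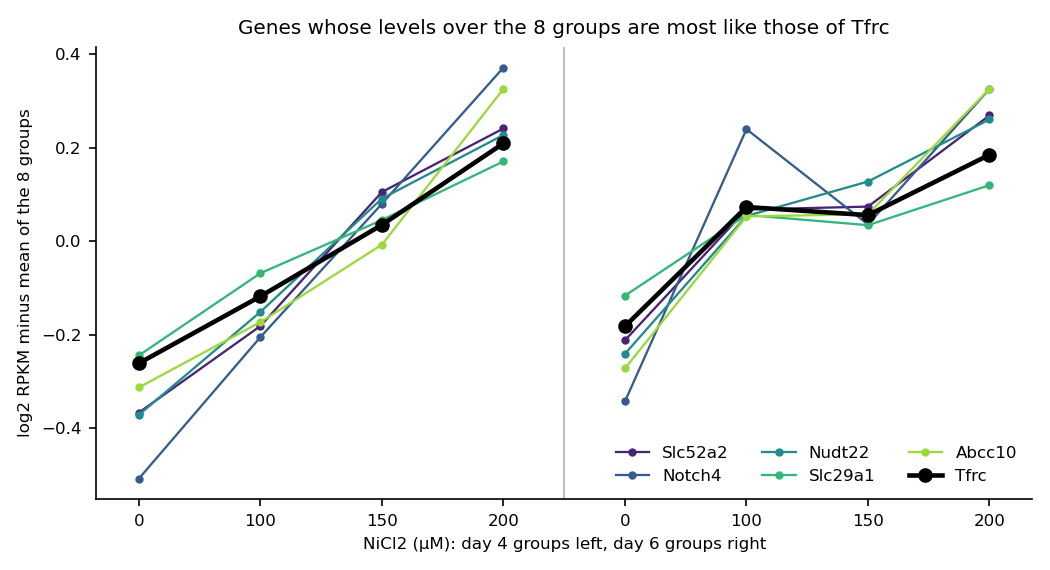
Log2 RPKM minus the gene's own mean over the 8 groups, for Tfrc and the 5 genes with the highest Pearson correlation to it, by nickel dose on days 4 and 6. All 6 lines are lowest in the untreated groups of each day; Tfrc spans less than Notch4, which went from 3.3 to 6.07 RPKM on day 4.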

How the data were processed

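Poly(A) RNA of 16 libraries (8 groups of 2) was sequenced with a stranded kit, per the labels' protocols. The submitters' processing notes name STAR, DESeq2 and build GRCm38, without versions. Each of 6 tables holds, per the file headers, 1 RPKM value per group and gene, and the authors' log2 fold change with raw and adjusted p-values. Per-library counts were not used here, so the authors' deposited p-values serve in place of a count model, and the samples cannot be refitted. A gene with log2 fold change 0 and p of 1 was treated as untested. SE equals the log2 fold change over the normal quantile of its p-value. Values were read with Python 3.11.15, pandas 2.3.3, numpy 2.4.6 and scipy 1.17.1, drawn with matplotlib 3.10.9, and the day test was tested on simulated data. Depth was estimated from RPKM steps of single-exon genes, where 98.1% to 100.0% of low values fell within 0.8% of a step. Evenly spread values would give 8.9% to 13.0%. The depths were those with the largest such share, so the share is no separate check of them. The search bounded how far the depths of a group could differ, and the pair of 34 and 61 megareads lay near that bound.

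The members and lists were chosen with earlier results of these data known. From the lists, genes past 0.05 in at least 3 comparisons and the 2 largest rises and falls per comparison were named. Alternatives were an adjusted p of 0.01, other adjustments, RPKM ratios with pseudocounts 0, 0.1 and 1, and centring on the median gene.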

Additional observations from a re-analysis of the deposited data

How the results depend on the processing

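At an adjusted p under 0.01 the 10 genes gave 1 call at 150 µM and 1 at 200 µM on day 4 (2 each at 0.05), and 0 at 100, 150 and 200 µM on day 6 (from 1, 2 and 1). The calls left were those of Tfrc. The iron list genes gave 3 calls at 150 µM (from 6) and 3 at 200 µM (from 7) on day 4. On day 6 they gave 2 at 100 µM (from 3) and 2 at 200 µM (from 4). With Benjamini-Hochberg over all genes with a p-value, the 10 genes gave 0 calls at 100 µM on day 6, where Tfrc was lost, leaving Tfrc with 4 calls in place of 5. Adjusting over genes with a mean RPKM of at least 1 raised the iron list calls at 200 µM on day 6 from 4 to 6 and changed no other count. Centring on the median gene changed no count of the 10 genes. As RPKM ratios, no called fold change reversed; that of Fth1 at 150 µM on day 6 moved from -0.28 to -0.37, and 4 uncalled values near 0 changed sign (Slc11a2 and Ncoa4 at 100 µM on day 4, Ncoa4 at 100 µM and Ftl1 at 150 µM on day 6). No paired analysis was possible because the tables give 1 value per group, and leaving out each replicate was not run for the same reason. With 2 libraries a group, the median SE of the 10 genes was 0.08 to 0.14 per comparison, which limits small changes.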
